A study of Rattus norvegicus with 17 samples.

Results

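Trpv6 (ENSRNOG00000014714, chromosome 4) encodes a calcium-selective channel of the transient receptor potential vanilloid family. It was 1 of 23487 genes quantified in whole rat kidney, and it was picked by its identifier because its level differed between diseased and control kidneys. Its level is therefore given as a description, with no test between the groups. The libraries came from study 2 of a pair of surgical studies of chronic kidney disease in male Wistar Han rats, with 1 kidney library per rat and no genetic change or test compound named in the labels. In the 12 SNx rats (sub-total nephrectomy) part of one kidney and then the whole of the other were removed, so that the sequenced tissue was the remnant. How scarred each remnant was is not given in the labels. The 5 rats of the control group carry the label NoOp and are described in the methods as sham operated. The SNx rats were culled at different times after surgery. Limits of serum creatinine and proteinuria were set for this, but by the study's account most SNx rats of study 2 did not reach them. The 12 sequenced here must therefore include some below these limits. Which of the 12 reached them, and how old each rat was, is not given in the labels, nor is the RNA quality of each library. The paper's methods report RNA integrity estimates that ran over a wide range across all samples, from strongly degraded upward. Whole-kidney RNA mixes every cell type, so fewer cells of a type and less RNA per cell cannot be told apart here.

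Epithelia that move calcium from a lumen into blood do so in steps. Calcium enters the cell through Trpv5 or Trpv6 in the apical membrane, crosses the cytoplasm bound to a calbindin such as S100g, and leaves through a pump or a sodium-calcium exchanger on the blood side. In the kidney this route runs in the distal convoluted and connecting tubule, where Trpv5 is the main entry channel, whereas Trpv6 is best known from the intestine. Vitamin D, through its nuclear receptor, and parathyroid hormone, through Pth1r, are the hormones that set the pace of this transport.

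Trpv6 and Trpv5 lie next to each other on the minus strand of rat chromosome 4, and Ephb6 is the neighbour on the other side of Trpv6, on the plus strand, so that Trpv6 and Ephb6 end towards each other. The 250 bases before the start of each gene are shown for the channel, its paralog and this neighbour, the 3 genes whose levels are set side by side here. The sequences are RefSeq's on the GRCr8 build, read 5′ to 3′ on the strand of the gene, and cover chr4:71489668-71489917 for Trpv6, chr4:71529383-71529632 for 1 start of Trpv5 and chr4:71458382-71458631 for Ephb6. Capitals mark AGGTCA or GGTTCA on either strand, letters found in the elements that nuclear receptors such as the vitamin D receptor bind.
Trpv6: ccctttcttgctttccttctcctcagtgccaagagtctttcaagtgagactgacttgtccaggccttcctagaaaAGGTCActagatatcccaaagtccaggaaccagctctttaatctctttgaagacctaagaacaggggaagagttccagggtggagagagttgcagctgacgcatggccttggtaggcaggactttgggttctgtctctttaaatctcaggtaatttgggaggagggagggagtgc
Trpv5: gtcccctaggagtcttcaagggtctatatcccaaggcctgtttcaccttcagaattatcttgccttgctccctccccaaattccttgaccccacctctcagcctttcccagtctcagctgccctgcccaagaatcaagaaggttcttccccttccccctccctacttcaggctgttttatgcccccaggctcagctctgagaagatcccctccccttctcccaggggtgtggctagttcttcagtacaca
Ephb6: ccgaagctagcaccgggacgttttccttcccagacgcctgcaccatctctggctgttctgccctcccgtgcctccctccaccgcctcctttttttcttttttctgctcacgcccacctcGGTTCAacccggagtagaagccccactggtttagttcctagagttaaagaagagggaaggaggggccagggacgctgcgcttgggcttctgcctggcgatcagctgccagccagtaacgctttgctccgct
The Trpv6 window held AGGTCA once, 175 to 170 bases before the start, and the Ephb6 window held GGTTCA once, 131 to 126 bases before the start. The Trpv5 window held neither. Of 33469 rat promoter windows of the same length, 14.1% held AGGTCA, 9.77% held GGTTCA and 22.2% held either, so these letters are common and their presence here is a description only.

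Trpv6 transcript was close to the lower limit of measurement in control kidneys and plainly measured in every SNx kidney. The 5 NoOp libraries held 17, 13, 13, 14 and 16 estimated Trpv6 counts, out of totals between 30454170 and 43876369. The 12 SNx libraries held 977, 560, 557, 195, 659, 538, 396, 618, 383, 556, 195 and 622 counts in the order SNx 1 to SNx 12, from smaller totals of 19210434 to 30784070. In CPM (counts scaled to a common library size with TMM factors), NoOp kidneys had between 0.362 and 0.605 and SNx kidneys between 6.97 and 46.8, with a median of 23.5. The groups did not overlap, and the lowest SNx library stood 11.5-fold above the highest NoOp library. On the log2 CPM scale NoOp kidneys had -0.89 ± 0.27 (SD, n = 5) and SNx kidneys 4.28 ± 0.78 (SD, n = 12). The fitted log2 fold change of 5.52 (standard error 0.48) ranked 46 of 15438 tested genes, which only describes the difference for which the gene was chosen. With so few control counts the size of this fold rests on 13 to 17 counts per NoOp library.

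**Figure D1:**
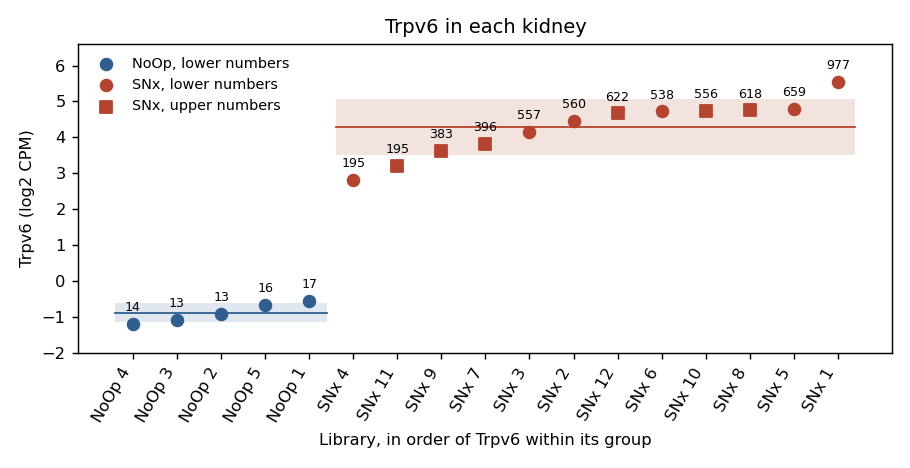
Trpv6 in log2 CPM (vertical axis) in each library, ordered by Trpv6 within its group; the number above each point is its estimated count, lines are group means, and shaded bands are ± 1 SD. The NoOp points lie between -1.20 and -0.56, and the SNx points between 2.82 and 5.55.

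The SNx kidneys differed widely among themselves. SNx 1 was the highest at 5.55 log2 CPM, a gap above SNx 5 at 4.80. SNx 8, SNx 10, SNx 6 and SNx 12 followed closely with 4.76, 4.74, 4.73 and 4.66, which differ from each other by less than the SD of the NoOp libraries. SNx 2 and SNx 3 had 4.45 and 4.16, SNx 7 and SNx 9 had 3.82 and 3.63, and SNx 11 and SNx 4 were the lowest at 3.20 and 2.82. The highest SNx library had 6.72 times the CPM of the lowest, against 1.67 times within NoOp. The SD over SNx libraries, 0.78, was above that of 90.3% of all tested genes. The sample numbers in the labels fall into a lower range, which holds SNx 1 to SNx 6 and all NoOp libraries, and an upper range, which holds SNx 7 to SNx 12. The mean was 4.42 ± 0.91 in the lower and 4.13 ± 0.67 in the upper range (SD, n = 6 each), a difference of 0.28 that lay within the spread (two-sided exact permutation test over 924 splits, p = 0.556).

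Across the 12 SNx kidneys Trpv6 rose with Lcn2 and fell with Slc3a1. Lcn2 encodes neutrophil gelatinase-associated lipocalin, a secreted protein made by injured tubules, and Slc3a1 encodes the heavy subunit of the apical cystine transporter of the proximal tubule. The kidneys with the least Trpv6, SNx 4 and SNx 11, had the least Lcn2 (5.02 and 4.94 log2 CPM), and the 2 highest Slc3a1 levels of the group (11.12 and 11.22 log2 CPM). At the other end, SNx 1 and SNx 5 had 7.51 and 7.70 for Lcn2 and only 7.25 and 8.10 for Slc3a1. SNx 9 joined the low-Trpv6 end with 5.84 for Lcn2 and 11.07 for Slc3a1. The remaining SNx kidneys had Lcn2 from 5.68 (SNx 7, under SNx 9) to 7.51 and Slc3a1 from 8.76 to 10.52. In NoOp kidneys Lcn2 lay between 1.14 and 1.96 and Slc3a1 between 11.67 and 12.04, so every SNx library was outside the NoOp range of both.

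For Lcn2, Pearson's r was 0.911 (permutation p = 2e-05) and Spearman's rho 0.951 (permutation p = 2e-05, two-sided, n = 12). Adjusted over the 8 relations computed for Trpv6, the permutation p of r was 0.00016. Without SNx 11 and SNx 4, the libraries farthest from the Lcn2 median, r was 0.832, and within the lower and upper ranges of sample numbers it was 0.899 and 0.972 (n = 6 each). For Slc3a1, r was -0.854 (permutation p = 0.00047, adjusted 0.00075) and rho -0.909 (permutation p = 7e-05, n = 12). Without SNx 1 and SNx 5, the farthest for Slc3a1, r was -0.800, and within the ranges it was -0.874 and -0.820; the upper value missed the threshold, with an exact permutation p of 0.0528 over 720 orders (adjusted 0.0844, n = 6; 0.0003 to 0.0844 over all alternatives). Lcn2 and Slc3a1 were themselves tied, with r = -0.884 (permutation p = 9e-05, adjusted 0.00018 over 4 added relations, n = 12), a relation added after the data were seen (-0.911 and -0.757 within the ranges, -0.833 without the 2 farthest), so the 2 relations of Trpv6 are not separate measurements.

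**Figure D2:**
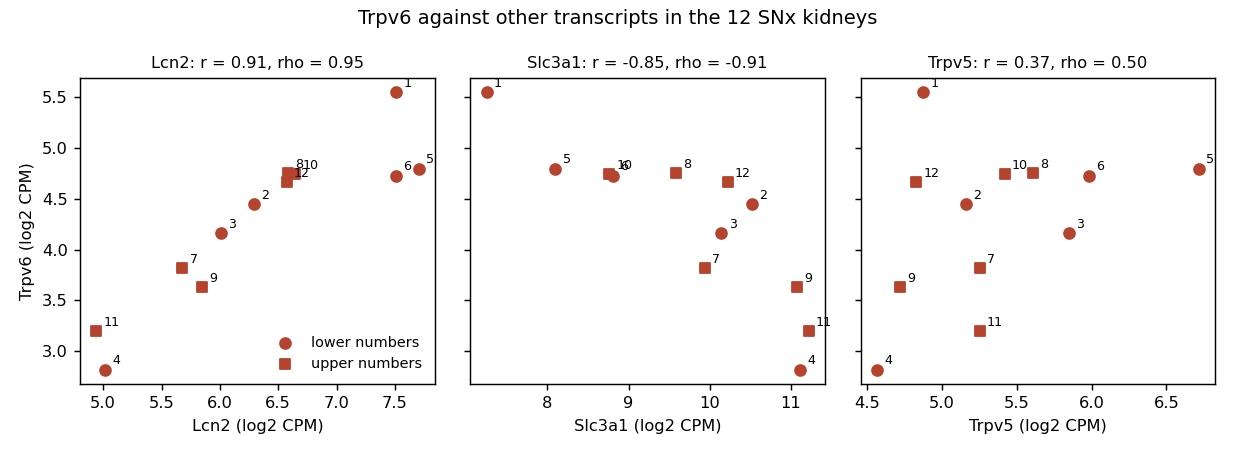
Trpv6 (vertical axis) against Lcn2, Slc3a1 and Trpv5 (horizontal axes), all in log2 CPM, in the 12 SNx kidneys; numbers name the libraries, circles are the lower and squares the upper range of sample numbers. Trpv6 rises along Lcn2 (r = 0.91), falls along Slc3a1 (r = -0.85) and is scattered against Trpv5 (r = 0.37).

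Strong correlations with Trpv6 were frequent among all genes. Over the 15437 other tested genes the median r was -0.02, but 5% of genes lay below -0.877 and 5% above 0.851. Lcn2 stood near the upper end, with only 0.894% of genes higher, whereas 7.51% of genes lay below Slc3a1. The first principal component of all 17 libraries, computed without Trpv6, held 60.4% of the variance and put NoOp kidneys at 75.8 to 86.5 and SNx kidneys at -108.92 to 22.9. Its SNx scores followed Trpv6 with r = -0.916 (permutation p = 4e-05, adjusted 0.00016) and rho = -0.937 (n = 12), and r was -0.900 without SNx 1 and SNx 5. SNx 11, SNx 4 and SNx 9, the 3 lowest in Trpv6, were the 3 SNx libraries with scores above 0. The total count also moved with Trpv6, with r = -0.634 (permutation p = 0.0267, adjusted 0.0305, n = 12), rho = -0.657, and r = -0.770 and -0.467 within the ranges; r was -0.712 without SNx 3 and SNx 9. Without SNx 1, SNx 4 or SNx 9 in turn this relation missed the threshold, with r of -0.56, -0.57 and -0.61. The parts that depth and RNA quality play in the relations of Trpv6 were not tested.

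Trpv5, the closest relative of Trpv6, rose by less, and its relation to Trpv6 over the SNx kidneys missed the threshold. SNx libraries held 610 to 2496 counts of it and NoOp libraries 386 to 578. In log2 CPM it had 4.87, 5.16, 5.85, 4.56, 6.72, 5.98, 5.25, 5.61, 4.72, 5.42, 5.25 and 4.83 in SNx 1 to SNx 12, and 4.26, 3.90, 4.14, 3.71 and 3.76 in NoOp 1 to NoOp 5. All SNx kidneys were above all NoOp kidneys, as for 13.5% of all tested genes (the groups were apart in either direction for 23.1%). By edgeR's quasi-likelihood fit Trpv5 rose by 1.52 log2 units with a standard error of 0.31 (adjusted p = 0.00062). This comparison called 58.0% of all tested genes, 30.3% upward and 27.7% downward, so a call by itself does not set a gene apart. These shares depend on the scaling: 4672 genes were called up and 4277 down here, against 7044 and 2403 with library size alone. SNx 1, the highest kidney for Trpv6, was the fourth lowest for Trpv5, and SNx 5 was the highest for Trpv5. Over SNx kidneys the relation of Trpv5 to Trpv6 had r = 0.372 (permutation p = 0.231, adjusted 0.231) and rho = 0.497 (permutation p = 0.103, n = 12). It moved from 0.181 without SNx 4 to 0.601 without SNx 1, was 0.253 without SNx 5 and SNx 6, and was 0.356 and 0.317 within the lower and upper ranges, where rho was 0.371 and 0.714 (n = 6 each). Trpv5 had r = 0.547 with Lcn2 (permutation p = 0.063, adjusted 0.0839) and -0.471 with Slc3a1 (permutation p = 0.12, adjusted 0.12, n = 12), both added after the data were seen. Within the lower and upper ranges the values were 0.597 and 0.151 for Lcn2 and -0.370 and -0.605 for Slc3a1, and without the 2 farthest libraries they were 0.484 and -0.699. Whether they differ from the values of Trpv6 was not tested.

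The balance between the paired channels can be followed within each library as log2 CPM of Trpv6 minus that of Trpv5. It was -4.84 ± 0.29 in NoOp (SD, n = 5) and -1.08 ± 0.79 in SNx (SD, n = 12), with SNx values from -2.05 to 0.68. The shift between the groups carries the difference for which Trpv6 was chosen, and the NoOp values rest on 13 to 17 Trpv6 counts. SNx 1 alone had a higher CPM for Trpv6 than for Trpv5. Transcript lengths were not used, so these differences compare libraries and not the molar amounts of the channels.

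S100g, the intracellular calcium carrier calbindin-D9k, was lower in every SNx kidney in CPM with TMM factors. Its counts were 0, 7, 5, 17, 1, 4, 14, 5, 28, 1, 12 and 12 in SNx 1 to SNx 12 and 27, 49, 36, 70 and 56 in NoOp 1 to NoOp 5. SNx 9 with 28 counts came nearest to NoOp 1 with 27, and in CPM the groups did not overlap, as for 9.60% of genes in this direction. This separation rests on the TMM factors. By library size alone SNx 9 was above NoOp 1, with more counts from a smaller total (30784070 against 31268168). By edgeR's fit the gene fell by 2.13 log2 units with a standard error of 0.50 (adjusted p = 0.0018). Where Trpv6 was high S100g was low, with r = -0.799 (permutation p = 0.0021, adjusted 0.0027) and rho = -0.874 over the SNx kidneys (n = 12), and r = -0.703 without SNx 1 and SNx 9. Within the ranges r was -0.895 and -0.698, and the relation missed the threshold in the upper range (exact permutation test, adjusted p = 0.15, n = 6; 0.00069 to 0.15 over all alternatives). Counts this low leave each S100g value with a wide counting error. S100g also followed Slc3a1, with r = 0.914 (permutation p = 6e-05, adjusted 0.00018, n = 12), a relation added after the data were seen (0.931 and 0.910 within the ranges, 0.815 without the 2 farthest).

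Pth1r, the receptor for parathyroid hormone, had 5.64 to 8.40 log2 CPM in SNx, with a median of 7.62, and 8.69 to 9.21 in NoOp, without overlap. In the edgeR fit it fell by 1.35 log2 units with a standard error of 0.31 (adjusted p = 0.0016). SNx 1 had the least Pth1r, 1038 counts, and SNx 11 the most in CPM, 7255 counts. The same kidneys had the least and the most Slc3a1 of the SNx group, 7.25 and 11.22 log2 CPM. Which tubule segment the Pth1r values come from was not tested. The relation of Pth1r to Trpv6 had r = -0.862 (permutation p = 0.00033, adjusted 0.00066) and rho = -0.916 (n = 12), r = -0.825 without SNx 1 and SNx 5, and -0.918 and -0.840 within the ranges. In the upper range alone it missed the threshold (exact permutation test, adjusted p = 0.0778, n = 6; 0.00016 to 0.0778 over all alternatives). Of the 8 genes listed for calcium entry and binding, Trpv6, Trpv5 and S100g could be matched to an identifier, of the 8 for calcium hormones Pth1r alone, and of the 4 for calcium exit none. The vitamin D receptor, the vitamin D hydroxylases, the calcium-sensing receptor and the exit pumps were thus not analysed here.

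**Figure D3:**
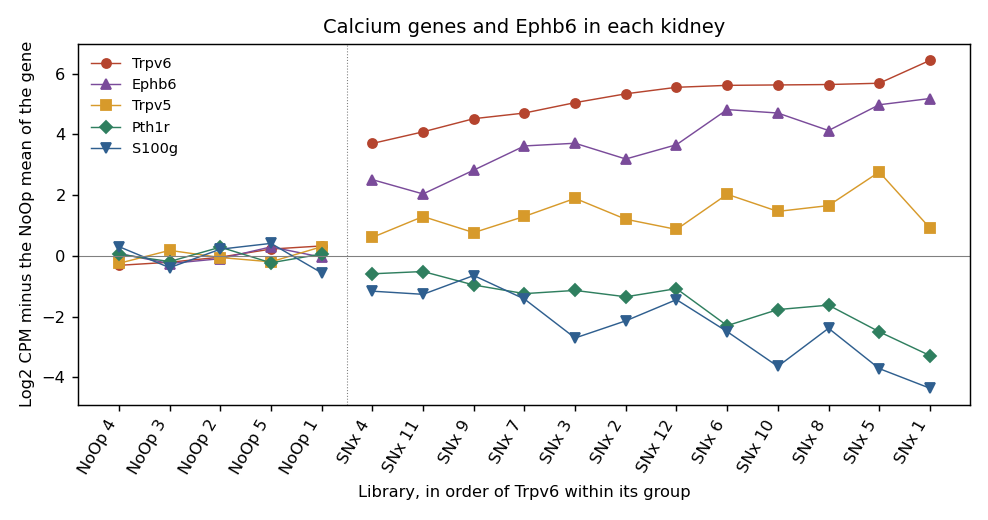
Log2 CPM of 5 genes minus the NoOp mean of each gene (vertical axis) in every library, ordered by Trpv6 within its group. Trpv6 and Ephb6 climb together over the SNx kidneys, Trpv5 stays above 0 and is highest in SNx 5, and S100g and Pth1r decline.

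Proteins reported to bind the channels moved in both directions. S100a10 and Anxa2, which form a complex at the cell membrane, rose by 1.20 and 1.35 on the log2 scale (adjusted p = 1.1e-05 and 5.6e-05, edgeR), both without overlap between the groups. Pdzd3, a PDZ scaffold protein, fell by 1.50 (adjusted p = 0.0107) with 88 to 1638 counts in SNx and 2215 to 2946 in NoOp. Nipsnap1, a mitochondrial protein, fell by 1.10 (adjusted p = 0.0024) and overlapped between the groups. These were the 4 of 14 listed partners that could be matched, and over SNx kidneys their r with Trpv6 was 0.59, 0.82, -0.83 and -0.91, in the same order.

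Of 25 listed transient receptor potential channels, 4 could be matched, Trpv6 and Trpv5 among them. The others, Trpm4 and Mcoln1, changed less than Trpv6, which was itself chosen for its difference between the groups. Trpm4, a calcium-activated channel for sodium and potassium, rose by 0.65 (adjusted p = 0.0039, edgeR), with overlap. Mcoln1, a lysosomal calcium channel, fell by 0.86 (adjusted p = 0.00039), without overlap. Of 34 other calcium channels and pumps, 4 could be matched. Cacnb3, a subunit of voltage-gated calcium channels, rose by 2.04 (adjusted p = 5.8e-05). Itpr3, which releases calcium from the endoplasmic reticulum, rose by 1.39 (adjusted p = 0.0015), and Piezo1, a stretch-activated channel, by 0.80 (adjusted p = 0.0069). Atp2a2, the pump that refills the endoplasmic reticulum, fell by 0.52 (adjusted p = 0.00047). Cacnb3 and Itpr3 each had r = 0.90 with Trpv6 over the SNx kidneys, as descriptions. All gene symbols come from a list that the study drew up from genes that changed in these kidneys, so that 1070 of its 2003 tested genes were called up and 812 down, and the counts of matched members carry that choice with them.

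**Figure D4:**
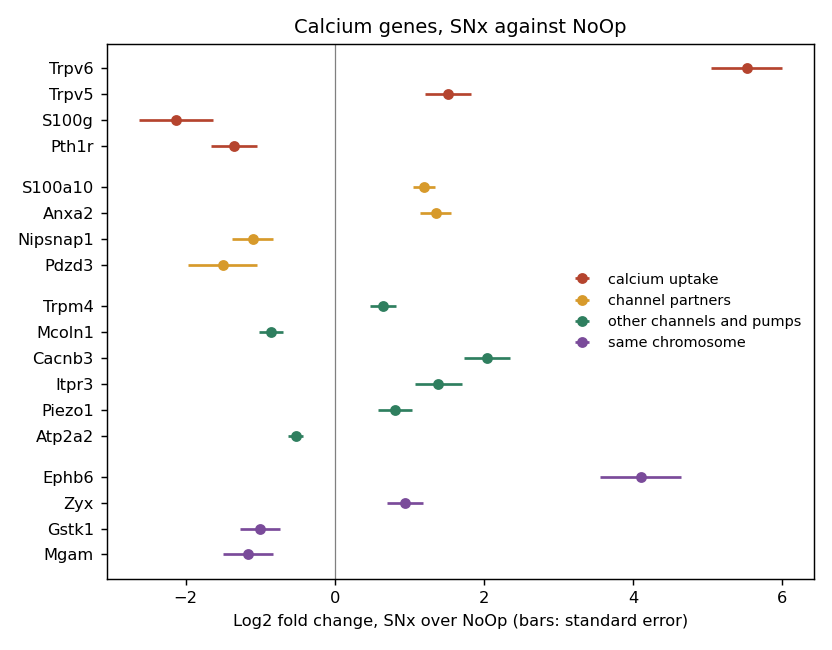
Log2 fold change of SNx over NoOp (horizontal axis) with its standard error for Trpv6 and the matched members of the calcium, partner, channel and neighbour lists. Trpv6 at 5.52 and Ephb6 at 4.10 lie apart from the rest, which range from -2.13 (S100g) to 2.04 (Cacnb3).

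Ephb6, the gene next to Trpv6, moved with it. It encodes an ephrin receptor that lacks kinase activity. Ephb6 had 6.90, 4.91, 5.43, 4.23, 6.70, 6.54, 5.34, 5.85, 4.55, 6.43, 3.76 and 5.38 log2 CPM in SNx 1 to SNx 12 and 1.68, 1.63, 1.47, 1.80 and 2.02 in NoOp 1 to NoOp 5. Every SNx kidney was above every NoOp kidney, and the gene rose by 4.10 log2 units with a standard error of 0.54 (edgeR, adjusted p = 1.4e-05). Its relation to Trpv6 had r = 0.890 (permutation p = 7e-05, adjusted 0.00019) and rho = 0.930 (n = 12). Without SNx 1 and SNx 11 r was 0.824, within the ranges it was 0.884 and 0.903, and 2.02% of tested genes had a higher r. Trpv6 minus Ephb6 was -2.61 ± 0.27 in NoOp and -1.23 ± 0.48 in SNx on the log2 scale (SD, n = 5 and 12). This shift, too, carries the difference for which Trpv6 was chosen. In RefSeq's annotation 116 bases lie between the ends of Ephb6 and Trpv6, against 13417 between Trpv6 and Trpv5. The libraries were made to keep the strand, but the strand setting of the quantification is not given in the sources used here. Reads shared between the converging ends of Trpv6 and Ephb6 were not tested. Farther along the chromosome Zyx, a focal adhesion protein, rose by 0.94 (adjusted p = 0.0034), whereas Gstk1, a glutathione transferase, fell to 149 to 825 counts from 875 to 1456 in NoOp (adjusted p = 0.0043), and Mgam, a glucosidase of brush borders, fell by 1.16 (adjusted p = 0.0075). Of 18 listed genes of this stretch of the chromosome, 5 could be matched, Trpv5 included, and they rose or fell, so no common direction was seen.

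Proximal tubule genes ran against Trpv6. Of 45 listed, 33 were tested, of which 30 fell, against 27.7% of all tested genes and 812 of the 2003 with a symbol. Slc2a2 rose, and Slc17a1 and Slc17a3 did not pass the test. The median log2 fold change was -1.50, against 0.02 over all tested genes. Their median r with Trpv6 over SNx kidneys was -0.82, against -0.02 over all tested genes. The endocytic receptor Lrp2 fell by 1.19 (r = -0.83), the water channel Aqp1 by 1.69 (r = -0.87), the peptidase Dpp4 by 1.26 (r = -0.87), and the transcription factor Hnf4a fell by 1.37 (r = -0.87). The phosphate transporter Slc34a1 fell by 1.42 (adjusted p = 0.0378, edgeR; r = -0.81), a call that was lost without NoOp 1, 2, 3 or 4 or SNx 6, 8 or 10 in turn, with library size alone, and with the lower range of SNx sample numbers alone (edgeR adjusted p 0.0191 to 0.0784 over all alternatives). The summed level of the list was 38447 to 48180 CPM in NoOp and 2580 CPM (SNx 1) to 27205 CPM (SNx 11) in SNx, with Lrp2 the most abundant. Defining kidney genes were abundant in NoOp libraries, where Lrp2, Aqp1 and Slc34a1 had mean levels of 12.97, 11.45 and 12.17 log2 CPM.

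Most tested injury genes ran with Trpv6. Of 47 listed, 33 were tested, of which 32 rose, against 30.3% of all tested genes and 1070 of the 2003 with a symbol, and Cryab, a small heat shock protein, fell. Their median log2 fold change was 2.24 and their median r with Trpv6 was 0.81. The r values ran from -0.81 (Cryab) to 0.92 (Il24), with lower positive values such as 0.37 for Krt8 and 0.47 for Timp1. The other listed genes carried no symbol, and symbols came from genes that the study found changed. Havcr1, for which the paper reports no significant rise in kidney transcripts, was not among the matched genes. The secreted proteins Clu and Spp1 rose by 3.83 and 4.44, the surface receptor Cd44 by 2.76 and the keratin Krt19 by 1.85, with r between 0.75 (Krt19) and 0.88 (Clu). The cytokine transcripts Il19 and Il24 were at 0 to 3 counts in NoOp libraries, against 82 to 640 for Il19 and 55 to 576 for Il24 in SNx, and had an r of 0.88 and 0.92 with Trpv6 over SNx kidneys. The summed level of the list was 1544 to 1987 CPM in NoOp and 5128 CPM (SNx 11) to 21642 CPM (SNx 5) in SNx, with Spp1 the most abundant.

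Leukocyte genes rose as well. All 12 tested of 18 listed were called up, as were 30.3% of all tested genes and 1070 of the 2003 with a symbol, and 11 lay above NoOp without overlap, as did 13.5% of all tested genes. Their median log2 fold change was 1.82, and their r with Trpv6 ran from -0.10 (Adgre1) to 0.79 (Cd68) with a median of 0.39; the difference from the r of injury genes was not tested. Their summed level was 129 to 206 CPM in NoOp and 344 (SNx 8) to 862 CPM (SNx 1) in SNx, with Csf1r the most abundant. Of 12 genes of fibroblasts and vessels, 3 could be matched: Col1a1, Col3a1 and Postn rose by 3.63, 2.74 and 5.23, with r of 0.60, 0.43 and 0.81. Summed, these 3 genes had 217 to 268 CPM in NoOp and 814 (SNx 8) to 8867 CPM (SNx 1) in SNx. SNx 1, also the highest in Trpv6, stood apart, with SNx 5 next at 1924.5 CPM. Whether these r values hold without SNx 1 was not tested. The part that these other cells have in the Trpv6 result was not tested.

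Genes of the distal segments moved in both directions, and few of them could be matched. Of 16 genes listed for the distal convoluted and connecting tubule, Trpv5, S100g, Cnnm2 and Emx1 could be matched, and Cnnm2 and Emx1 fell by 0.80 and 1.21 (adjusted p = 0.00031 and 0.00015, edgeR) with r of -0.79 and -0.86. The summed level of these 4 genes was 83.4 to 198.0 CPM in SNx and 199.8 to 240.4 CPM in NoOp, with Cnnm2 the most abundant. For the collecting duct, Kit and Krt7 rose by 0.61 and 0.56 and Slc26a4 fell by 0.72, all with overlap, with r of 0.73, 0.73 and -0.44, and their summed level was 439 to 850 CPM in SNx and 447 to 557 CPM in NoOp. Krt7, the most abundant of them, is also among the listed injury genes. For the thick ascending limb, Cldn19 rose by 0.99 (r = 0.58) and Cldn10 fell by 0.81 (r = -0.71). Defining genes of these segments such as Slc12a3, Calb1, Umod and Aqp2 carried no symbol in the tables used and were not analysed here, nor were podocyte or exocrine pancreas genes, of which none was matched.

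**Figure D5:**
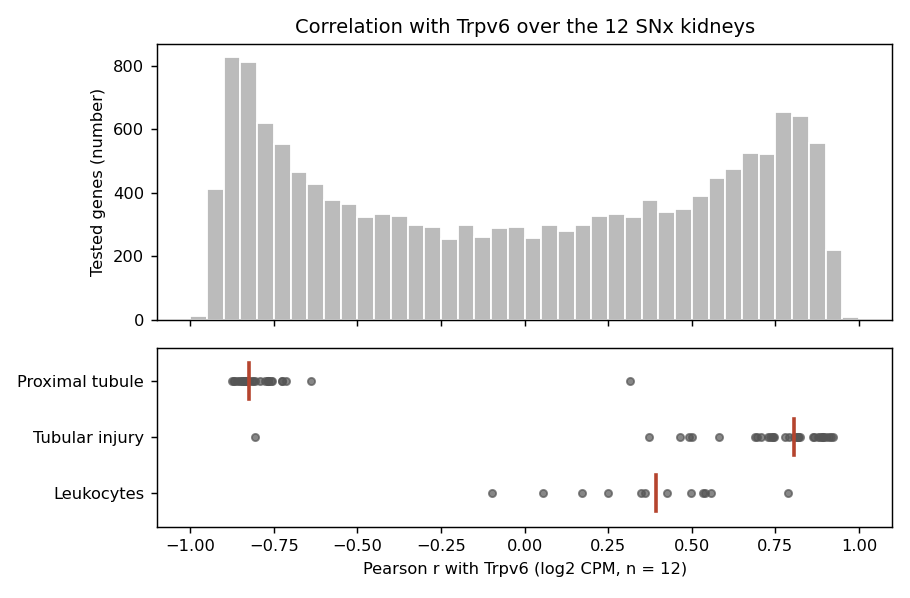
Pearson's r with Trpv6 over the 12 SNx kidneys (horizontal axis), as a histogram of all other tested genes (top, number of genes) and as points for the tested members of 3 lists (bottom; bars are medians). The histogram has a peak at each end, with proximal tubule genes at a median of -0.82, injury genes at 0.81 and leukocyte genes at 0.39.

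The genes most like Trpv6 over the SNx kidneys were sought among the 13348 other tested genes whose SNx mean reached 1 log2 CPM. By Pearson's r over 12 libraries, the named genes with the highest values were Ppm1l (0.953), Il17rb (0.952), Nin (0.947), Vtcn1 (0.946) and S100a11 (0.945). Ppm1l is a protein phosphatase, Il17rb a cytokine receptor, Nin a centrosome protein, Vtcn1 a surface protein of the B7 family and S100a11 a calcium-binding protein. ENSRNOG00000058654 and ENSRNOG00000018770, which have no symbol here, were higher still at 0.966 and 0.962. None of these matched the size of the change in Trpv6, which was itself chosen for its difference. Against NoOp, the log2 fold change was 0.55 for Ppm1l, 1.79 for Il17rb, 0.96 for Nin, 1.92 for Vtcn1 and 1.32 for S100a11. The most opposed named genes were Acsf3 (-0.958), Mlycd (-0.952), Fdx1 (-0.946), Ivd (-0.945) and RGD1303003 (-0.940), and among identifiers without a symbol ENSRNOG00000028207 (-0.968) and ENSRNOG00000045647 (-0.966). Acsf3, Mlycd, Fdx1 and Ivd encode mitochondrial enzymes or electron carriers, of malonyl-CoA, steroid and leucine metabolism. With 12 libraries and a shared axis of variation the order among such values is a description.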

How the data were processed

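Kidney RNA was depleted of ribosomal RNA and sequenced in pairs from strand-specific libraries, 12 SNx and 5 NoOp. The authors quantified reads with Salmon on rat (rn6 is the build in the submitters' processing notes, versions not given in the sources used here) and deposited a table of estimated counts and a table of normalised log2 values per library, whose values are on the scale of limma-voom. All estimated counts came out whole. Another 34 columns, in whole-series tables that held the same values, were not used.

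The counts (23487 genes, 19210434 to 43876369 per library) were fitted with edgeR 4.0.16 (R 4.3.3): filterByExpr, TMM factors, quasi-likelihood F test, Benjamini-Hochberg over 15438 genes, threshold 0.05. Levels are log2 CPM with a prior count of 2. Counting error of CPM values covers reads only. Relations within SNx are Pearson's r and Spearman's rho with two-sided p from 100000 permutations (smallest possible 1e-05), adjusted over 8 relations; 4 more were added after the data were seen. Alternatives were DESeq2 1.42.0, limma-voom and limma 3.58.1 on the deposited normalised log2 values, other scalings, filters and prior counts, both ranges of sample numbers, and each library left out. On simulated counts for SNx against NoOp (15438 genes), edgeR recovered 71 of 100 genes changed 2-fold and 100 of 100 changed 4-fold, with 8 false calls. Both groups were simulated with the same spread and 200 changed genes. In the data 58.0% of genes were called, and the median SD of a gene was 0.29 in SNx and 0.17 in NoOp. The simulation therefore checks the code and gives no error rates for these data. No pair of libraries of a group was alike within sampling noise (lowest chi-square per degree of freedom 21.9 in SNx, 26.1 in NoOp). Nothing in the labels names a shared batch.

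Symbols were available for 2007 identifiers, from a list of the study; its fold changes and p-values were not used. Promoters and gene order come from RefSeq (GRCr8; 3 of 3 symbols matched). The genes named are Trpv6, Lcn2, Slc3a1, every matched member of the calcium, partner, channel and neighbour lists, 5 proximal tubule and 6 injury genes, and the 5 named genes and at most 2 unnamed identifiers with the highest and the lowest r with Trpv6; list members that moved against their list or missed the test, leukocyte genes (the most abundant, and the lowest and highest r), and the other matched segment, fibroblast and vessel genes were named after their values were seen. Members and lists were chosen with earlier results of these data known. Age, time after surgery and RNA quality per rat entered no fit here.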

Additional observations from a re-analysis of the deposited data

Results flagged for a closer look

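Of 31 sets of 5 NoOp values examined for a library far from the rest, 2 stood out, and chance alone gives about 1 in 20, or 1.55 of 31. Aqp1, the water channel of the proximal tubule, stood at 10.99 log2 CPM in NoOp 1, and the remaining NoOp libraries lay between 11.49 and 11.68. Il24, a cytokine, stood at -2.89 log2 CPM in NoOp 3, which held 2 counts, and at -3.75 in the remaining NoOp libraries, which held none. Trpv6 showed no such library in NoOp.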

How the results depend on the processing

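Scaling by library size alone moved the counts of called genes, to 7044 up and 2403 down (74.6% of calls upward) from 4672 up and 4277 down (52.2%), with the median log2 fold change of all genes at 0.23 against 0.02. Under the other settings 7317 to 9415 genes were called, and 7914 to 9438 with 1 library left out. The log2 fold change of Trpv6 lay between 5.32 (limma-voom) and 5.74 (library size alone), and between 5.37 (without SNx 1) and 5.62 (without NoOp 1) with 1 library left out. Within the upper range of sample numbers (n = 6), 3 relations of Trpv6 kept their direction but missed the threshold by permutation: Slc3a1 (r = -0.820, adjusted p = 0.0844, over alternatives 0.0003 to 0.0844), S100g (r = -0.698, adjusted p = 0.15, over alternatives 0.00069 to 0.15) and Pth1r (r = -0.840, adjusted p = 0.0778, over alternatives 0.00016 to 0.0778). The total count did so in the lower range (r = -0.770) and the upper range (r = -0.467), and its r ran from -0.793 to -0.558 with 1 SNx library left out; fewer samples enter all these fits, and no other cause was tested. Relations with Lcn2, Ephb6 and the first principal component kept their side of the threshold under every alternative run, and no result reversed. Of 807 values for 30 named genes under the alternatives, 798 kept direction and call, and the other 9 were all Slc34a1. No paired analysis was possible because each library is a different rat and the labels give no number shared between the groups; the replicate numbers used here only follow the order of the samples. With 13 to 17 Trpv6 counts in NoOp libraries, depth limits the control level.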
